A study of Mus musculus with 6 samples.

Results

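The comparison sets 2 arrays of E2A-KO LMPP against 2 arrays of WT LSK FLT3- cells, 4 of the 6 arrays of the series, and covers 18194 genes, each represented by its brightest probe set with a single symbol. Both populations were sorted from adult mouse bone marrow as lineage-negative, SCA1+ KIT+ cells. E2A-KO LMPP had high surface FLT3 and came from E2A-KO mice on a C57bl/6 background, and WT LSK FLT3- cells lacked surface FLT3 and came from C57bl/6 mice. The remaining 2 arrays, WT LMPP, hold FLT3-high cells of the wild type and serve as a second reference. Genotype and stage differ together in the main comparison, so the share of each in a difference cannot be told apart from its 4 arrays. How the knockout was made, the age and number of the mice, and any pooling are not given in the sources used here. Cells went from the sorter into lysis buffer, and their RNA was amplified in 2 rounds, which favours the 3′ ends of transcripts. Whether the pair of arrays in a group stands for different mice is not in the labels, and p-values here reflect only spread between arrays, which may be technical.

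E2A is the pair of basic helix-loop-helix proteins, E12 and E47, encoded by Tcf3. They bind E-box DNA as dimers, are held back by Id proteins, and are known as regulators of lymphoid gene expression. The LSK FLT3- fraction holds the hematopoietic stem cells and has megakaryocyte and erythroid potential. As cells gain FLT3 they are known to lose stem cell and megakaryocyte-erythroid transcripts and to begin low-level transcription of lymphoid genes, which is called lymphoid priming.

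Stem cell, megakaryocyte and erythroid genes were mostly lower in E2A-KO LMPP than in WT LSK FLT3-, 7 of 13 antigen presentation genes were higher, and lymphoid priming genes went both ways. The class II presentation genes H2-Aa, H2-Ab1, H2-Eb1 and Cd74 were 4.62 to 6.16-fold higher, and Vwf, Gata2 and Tek were 6.07 to 8.87-fold lower, with Vwf and Tek below the array medians in E2A-KO LMPP. Dntt and Rag2 were higher than in WT LSK FLT3- and below WT LMPP, while Il7r, Ccr9, Rag1, Blnk and Notch1 were not higher than in WT LSK FLT3- and were below WT LMPP. Most of the measured genes of mature neutrophils and of the Gimap GTPases were below both wild-type groups.

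Of 18194 genes, 6822 differed between E2A-KO LMPP and WT LSK FLT3- (limma, adjusted p under 0.05), which is 37.5% of those tested. Of these, 2002 were higher (11% of genes tested) and 4820 lower (26.5%) in E2A-KO LMPP. The list counts below are to be read beside these shares, to which some lists lie close. All lists were chosen with earlier results of these data known. A difference of at least 2-fold was called for 177 higher (0.973%) and 1181 lower genes (6.49%). The arrays of the groups did not overlap for 74% of genes (32.9% higher and 41.1% lower), so that feature alone singles out few genes. Leaving out a WT LSK FLT3- array lowered the count: 2944 genes passed without WT LSK FLT3- replicate 1 and 2989 without replicate 2.

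The balance of rises and falls depended on the scaling. The 4 LMPP arrays had upper quartiles of 5.78 to 5.82 (log2), and the pair from WT LSK FLT3- had 6.13 and 6.15. In the dimmest of 4 equal bins of genes 489 were higher and 45 lower, and in the brightest bin 187 were higher and 2132 lower. Of the calls, 29.3% were higher as deposited, 44% of 3617 calls after quantile normalization, 14.6% of 7201 after centring on array medians and 18.7% of 6100 without the dimmest 40% of genes. Centring moved the median difference of all genes from -0.02 to -0.16. The median of DNA replication genes turned from -0.14 to 0.17 under quantile normalization, while those of MHC class II, stem cell surface, megakaryocyte and Gimap genes kept their sign.

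**Figure D1:**
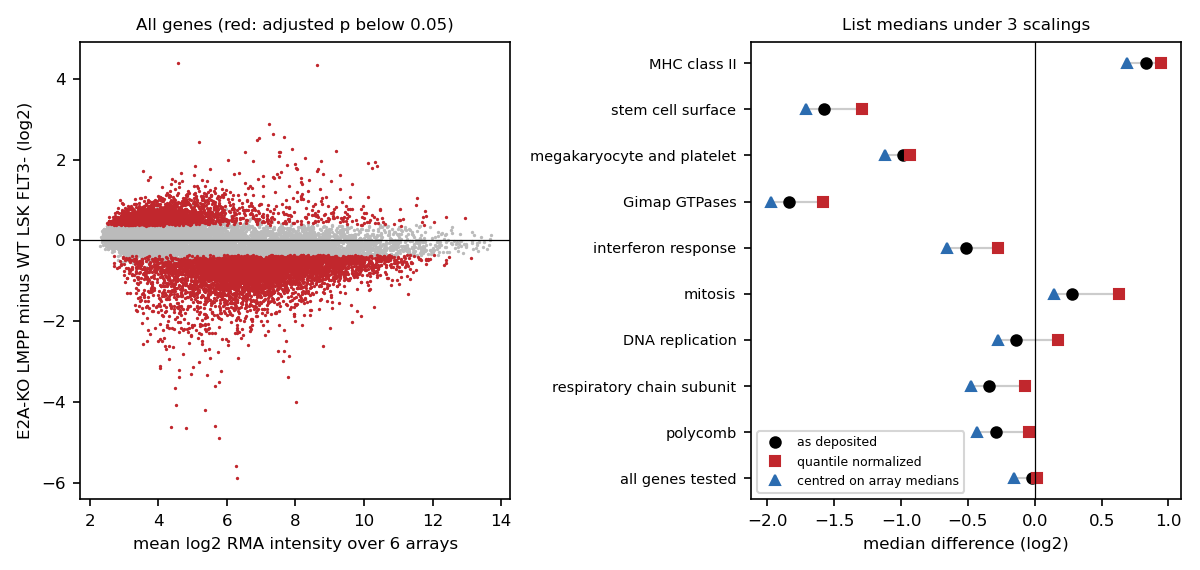
Left, the difference between E2A-KO LMPP and WT LSK FLT3- (log2) for each of 18194 genes against its mean log2 intensity over 6 arrays, with genes at an adjusted p under 0.05 in red. Right, medians of 9 gene lists and of all genes as deposited (circles), after quantile normalization (squares) and after centring on array medians (triangles); the DNA replication median lies at -0.14, 0.17 and -0.28.

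The level of Flt3 followed the sort. Flt3, the receptor used to part the fractions, was at 8.87 and 8.76 (log2 RMA intensity) on the WT LSK FLT3- arrays, at 10.70 and 10.76 in E2A-KO LMPP and at 10.80 and 10.80 in WT LMPP. It was 3.78-fold higher in E2A-KO LMPP than in WT LSK FLT3- (adjusted p = 3.2e-05), without overlap, and -0.07 from WT LMPP (95% interval -0.36 to 0.21). Kit, the stem cell factor receptor, went from 10.05 and 10.38 to 8.85 and 8.47, a difference of -1.56 (adjusted p = 0.000388). Slamf1, which encodes the stem cell marker CD150, fell by 1.25, and Cd48, its relative on multipotent progenitors, fell by 1.14. Ptprc, which encodes the pan-leukocyte phosphatase CD45, differed by 0.04 (adjusted p = 0.828). Cd34, a sialomucin of progenitors, was 0.41 higher, a call lost with the replicate block, after centring, and without E2A-KO LMPP replicate 1 or either WT LSK FLT3- array (adjusted p up to 0.196).

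Of 7 measured markers of the LSK FLT3- fraction 7 fell, and their summed linear intensity was 3376 to 3679 in WT LSK FLT3-, 1123 to 1127 in E2A-KO LMPP and 878 to 979 in WT LMPP. Of 6 measured markers of the LMPP stage 2 rose and 2 fell, with sums of 2924 to 2941, 4882 to 5043, and 11365 to 11389 in the same order. E2A-KO LMPP thus stood between the wild-type groups in both sums. In these sorted pools fewer cells of a type and less RNA per cell cannot be told apart. Tcf3 itself, the targeted gene, was at 7.27 and 7.41 in WT LSK FLT3-, 6.80 and 6.53 in E2A-KO LMPP and 6.93 and 6.86 in WT LMPP. It was 0.67 lower in E2A-KO LMPP than in WT LSK FLT3- (adjusted p = 0.00699, 0.328 after quantile normalization, and lost without WT LSK FLT3- replicate 2) and -0.23 from WT LMPP (adjusted p = 0.5). The sources used here do not give where its 3 probe sets lie relative to the deleted part, and Tcf3 is no check of the genotype.

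MHC class II molecules present peptides to T cells, and their loading needs the invariant chain Cd74, H2-DM proteins and the protease cathepsin S. Of 13 measured genes of antigen presentation 7 rose and 0 fell, with a median of 0.83 against -0.02 over all genes, and 7 to 10 rose under each of 13 alternatives. Against WT LMPP 0 of the 13 passed (limma), where 1.37% of all genes did, and 1 was higher and 5 were lower at an unadjusted p under 0.05.

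Promoters of H2-Aa and H2-Eb1 are shown because both genes rose and both hold the same class II promoter element. The 150 bases before each start are given on the gene's strand, from RefSeq on GRCm38.p6, at chr17:34287824-34287973 (minus strand) and chr17:34305717-34305866 (plus strand). Capitals mark CTGATTGG, the core of the Y box of class II promoters.
H2-Aa: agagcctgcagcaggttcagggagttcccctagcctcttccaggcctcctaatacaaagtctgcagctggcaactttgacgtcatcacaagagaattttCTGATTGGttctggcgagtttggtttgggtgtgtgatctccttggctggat
H2-Eb1: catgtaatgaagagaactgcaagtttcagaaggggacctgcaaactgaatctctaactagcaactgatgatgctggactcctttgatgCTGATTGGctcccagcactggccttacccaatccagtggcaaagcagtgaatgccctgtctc
The motif begins 51 bases before the start in H2-Aa and 62 bases before it in H2-Eb1. Searched on both strands in windows of 300 bases, it occurs in 4.10% of 32851 promoter windows. Of the 13 antigen presentation genes 8 had a window, and 3 of them held it: H2-Aa, H2-Eb1 and H2-Oa. H2-Oa, which modulates peptide loading, differed by 0.31 and did not pass. A match is a description of the sequence, not a binding site.

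H2-Aa, the alpha chain of the I-A molecule, was at 7.29 and 7.82 in WT LSK FLT3-, 9.90 and 9.63 in E2A-KO LMPP and 10.38 and 10.12 in WT LMPP. H2-Eb1, the I-E beta chain, was at 5.74 and 5.98, 8.42 and 8.41, and 8.63 and 8.78. Both groups of LMPP arrays lay above the WT LSK FLT3- arrays, and the E2A-KO LMPP arrays lay below the WT LMPP arrays. Against WT LSK FLT3- the differences were 2.21 (SE 0.20, adjusted p = 0.000133) for H2-Aa and 2.55 (SE 0.14, adjusted p = 1.23e-05) for H2-Eb1. Against WT LMPP they were -0.49 (95% interval -0.93 to -0.04) and -0.29 (-0.61 to 0.03), neither past the adjusted threshold.

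Cd74 went from 5.47 and 5.47 to 8.23 and 7.96, a 6.16-fold rise (adjusted p = 1.13e-05), and was at 8.49 and 8.44 in WT LMPP. H2-Ab1, the I-A beta chain, rose by 2.27 and stood -0.43 from WT LMPP (95% interval -0.79 to -0.08). H2-Ob, the partner of H2-Oa, rose by 1.51, Ctss, which encodes cathepsin S, by 1.06, and the loading chaperone gene H2-DMb2 by 0.83. Ciita, the coactivator of class II genes, averaged 3.47 in WT LSK FLT3- and 3.45 in E2A-KO LMPP, below the array medians, and differed by -0.02. H2-DMa, Ifi30, Cd86 and Cd83, genes of peptide loading and costimulation, differed by 0.05 to 0.32 and did not pass.

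Several genes of macrophages and monocytes were also higher in E2A-KO LMPP. This list too was chosen with earlier results of these data known, so its counts are a description. Against WT LMPP 1 of its 24 measured genes was higher and 4 were lower, beside 0.379% and 0.995% of all genes. Of 24 measured, 8 rose and 5 fell, with a median of 0.18, and without WT LSK FLT3- replicate 1 or 2 the falls were 2. Wfdc17, a secreted protein of activated macrophages, was at 6.14 and 6.0 in WT LSK FLT3-, 10.57 and 10.24 in E2A-KO LMPP and 9.36 and 9.40 in WT LMPP. It stood 20.2-fold above WT LSK FLT3- (log2 difference 4.33, SE 0.15, adjusted p = 1.4e-06), with no overlap. It was also 1.02 above WT LMPP (adjusted p = 0.0139, up to 0.0839 without single arrays other than E2A-KO LMPP replicate 2). Plbd1, a phospholipase-type protein of myeloid granules, rose 7.34-fold, from 5.13 and 5.15 to 8.13 and 7.90.

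Mpeg1, the macrophage perforin, was at 6.50 and 6.62 in WT LSK FLT3-, 8.58 and 8.63 in E2A-KO LMPP and 9.76 and 9.61 in WT LMPP. It rose by 2.05 and lay 1.08 below WT LMPP (adjusted p = 0.0055), so all 3 groups stood apart. Irf8, a transcription factor of monocytes, dendritic cells and B cells, was at 7.44 and 7.37, 9.20 and 9.06, and 9.25 and 9.42, a rise of 1.72, and its -0.21 from WT LMPP did not pass. Emb, the adhesion protein embigin, rose by 1.83, and Cd52, a small surface glycoprotein, by 0.95. Cybb, the catalytic subunit of the phagocyte oxidase, was at 5.47 and 5.37, 3.78 and 4.48, and 5.74 and 5.79, so that only E2A-KO LMPP was low. It was 1.29 below WT LSK FLT3- (adjusted p = 0.0021) and 1.64 below WT LMPP (adjusted p = 0.00709).

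Other large rises were seen outside these lists. Wfdc18, a relative of Wfdc17, rose 5.83-fold, from 5.24 and 5.23 to 7.83 and 7.73, and differed from WT LMPP by -0.02 (95% interval -0.30 to 0.26). Ddx4, an RNA helicase best known from germ cells, went from 6.01 and 6.13 to 8.19 and 8.33, beside 8.20 and 8.22 in WT LMPP. Naaa, a lysosomal amidase, and Slc35d3, of the nucleotide sugar transporter family, rose by 2.19 and 2.18. The differences of these 4 genes from WT LMPP ran from -0.47 to 0.05 and did not pass.

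St6gal1, a sialyltransferase, Sdc1, a proteoglycan, and Clec2i, a C-type lectin, rose by 2.08, 2.48 and 2.43. Sdc1 is also on the plasma cell list. Sdc1 was at 5.48 and 5.61 in WT LSK FLT3-, 7.91 and 8.14 in E2A-KO LMPP and 7.04 and 7.15 in WT LMPP, and Clec2i was at 3.77 and 3.93, 6.24 and 6.31, and 5.46 and 5.34. In both the E2A-KO arrays were the highest, by 0.94 and 0.88 over WT LMPP (adjusted p = 0.0158 and 0.0164). Both calls against WT LMPP were lost without either WT LSK FLT3- array, without E2A-KO LMPP replicate 2 and without 1 of the WT LMPP arrays, that for Clec2i also without E2A-KO LMPP replicate 1 and with the mean of its probe sets (up to 0.0955 and 0.0994).

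**Figure D2:**
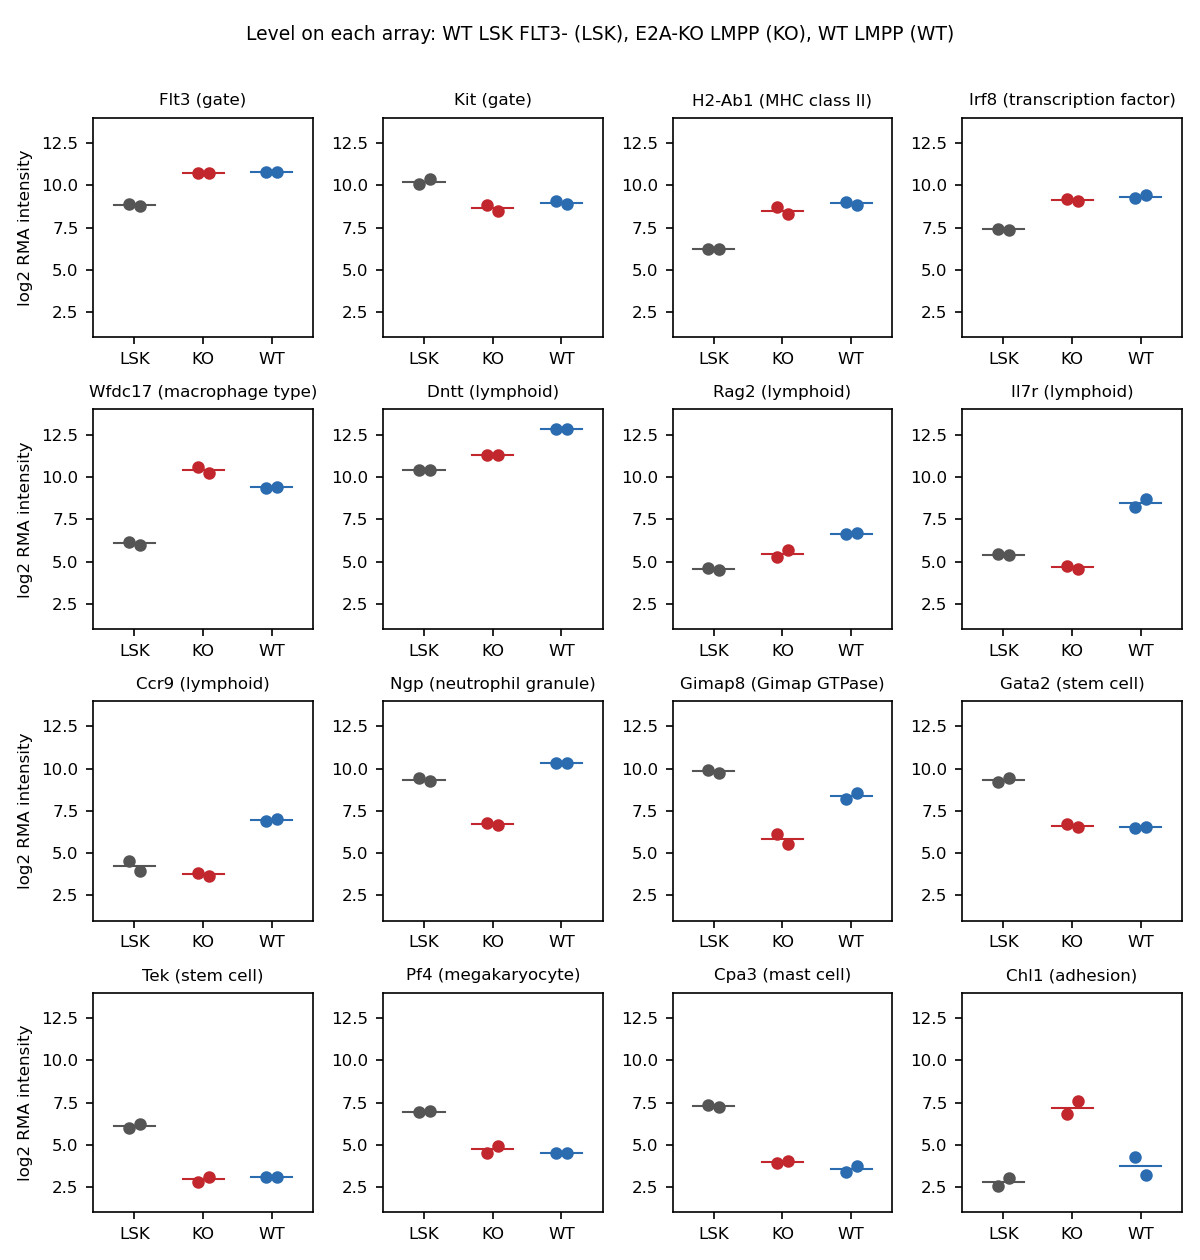
Level of 16 genes on each of 6 arrays (log2 RMA intensity, 1 point per array, bars at group means) for WT LSK FLT3- (LSK), E2A-KO LMPP (KO) and WT LMPP (WT). H2-Ab1 and Irf8 in E2A-KO LMPP lie near WT LMPP, the E2A-KO LMPP means of Il7r and Ccr9 lie below those of WT LSK FLT3-, and Ngp and Gimap8 below both wild-type groups.

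Stem cell genes were broadly lower in E2A-KO LMPP. Of 23 measured surface and related genes 17 fell and 0 rose, with a median of -1.58, and 14 to 18 fell under the alternatives. Tgm2, a transglutaminase, was at 10.14 and 10.02 in WT LSK FLT3-, 3.89 and 4.49 in E2A-KO LMPP and 4.51 and 4.65 in WT LMPP, a difference of -5.89 from WT LSK FLT3- (adjusted p = 1.27e-06). Tek, the angiopoietin receptor, was at 6.0 and 6.21, 2.83 and 3.09, and 3.12 and 3.07. Both LMPP groups were low for these genes, Tek below the array medians, and the differences from WT LMPP were -0.38 and -0.14. Pdzk1ip1, a membrane protein of stem cells, fell by 2.70 and stood 0.00 from WT LMPP (95% interval -0.31 to 0.31).

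Procr, which encodes the protein C receptor of stem cells, fell by 2.21, Esam, an adhesion molecule of stem cells and endothelium, by 2.56, and the efflux transporter gene Abcg2 by 1.58. Their differences from WT LMPP were -0.11 to 0.14 and did not pass. Robo4, a guidance receptor of stem cells and endothelium, was at 5.61 and 5.88 in WT LSK FLT3-, 4.10 and 4.14 in E2A-KO LMPP and 5.55 and 5.58 in WT LMPP. It was low only in E2A-KO LMPP, by 1.62 and 1.44 against the wild-type groups (adjusted p = 0.000113 and 0.00176). Adgrg1, the adhesion receptor GPR56, fell by 1.34 from WT LSK FLT3-, and its call against WT LMPP (adjusted p = 0.0311) was lost with the replicate block, after quantile normalization and without any 1 of the 6 arrays (up to 0.126).

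Of 25 transcription factors of stem cells 18 fell and 3 rose, with a median of -1.03, with 15 to 18 falls and 0 to 5 rises under the alternatives. Gata2, a zinc finger factor required in stem cells, was at 9.24 and 9.47 in WT LSK FLT3-, 6.71 and 6.55 in E2A-KO LMPP and 6.49 and 6.57 in WT LMPP. It fell 6.62-fold (adjusted p = 1.12e-05) and was 0.10 from WT LMPP (95% interval -0.22 to 0.42). Gfi1b, a repressor of the megakaryocyte and erythroid lineages, fell by 2.16, the stem cell factors Prdm16 and Hlf by 2.11 and 1.29, and Fli1, an ETS factor of stem cells and megakaryocytes, by 1.61. Mecom and Meis1, factors of stem cell maintenance, differed by -1.27 and -1.03 for the brightest probe set, and both calls were lost with the mean of all probe sets (adjusted p = 0.122 and 0.283). The 3 rises, of Rora, Nr4a2 and Hoxb4, were each lost under 2 to 4 alternatives (adjusted p up to 0.242, 0.6 and 0.0944).

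Hmga2, a chromatin protein of fetal and self-renewing stem cells, had another pattern. It was at 7.82 and 7.73 in WT LSK FLT3-, 5.58 and 5.46 in E2A-KO LMPP and 8.39 and 8.21 in WT LMPP, so only the E2A-KO arrays were low. It fell by 2.25 from WT LSK FLT3- and was 2.78 below WT LMPP (adjusted p = 2.02e-05 and 4.05e-05). Of its 4 probe sets 3 were lower than in both groups, and the fourth, at a mean of 3.36 in E2A-KO LMPP, did not pass. Hoxa9, Msi2 and Lmo2, regulators that stem cells share with later progenitors, differed from WT LSK FLT3- by 0.02, -0.08 and 0.37 and did not pass.

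Megakaryocyte and platelet genes fell in 14 of 21 cases and rose in 0, with a median of -0.98 and 11 to 15 falls under the alternatives. Mmrn1, the platelet protein multimerin, was at 8.37 and 8.49 in WT LSK FLT3-, 3.38 and 3.72 in E2A-KO LMPP and 4.91 and 5.71 in WT LMPP. Its E2A-KO levels were below the array medians, where background was not tested. It fell by 4.88 from WT LSK FLT3- (adjusted p = 1.02e-05) and was 1.76 lower than in WT LMPP (adjusted p = 0.0108, 0.0912 without E2A-KO LMPP replicate 1). Slc18a2, the vesicular monoamine transporter of platelets and mast cells, went from 7.53 and 7.64 to 2.82 and 3.12, and Vwf, the von Willebrand factor gene, from 6.26 and 6.0 to 3.45 and 3.61. Itga2b, which encodes CD41, fell by 2.29, the platelet chemokine gene Pf4 by 2.24, and Zfpm1, which encodes the GATA cofactor FOG1, fell by 2.28. Differences of these 5 genes from WT LMPP were 0.00 to 0.53 and did not pass. The summed linear intensity of 4 megakaryocyte markers was 430 to 455 in WT LSK FLT3-, 126 to 129 in E2A-KO LMPP and 94.1 to 97.4 in WT LMPP.

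Erythroid genes fell in 11 of 19 cases and rose in 0, with a median of -0.77. Car1, a carbonic anhydrase of red cells, went from 7.86 and 7.93 to 4.59 and 4.52, a fall of 3.34 (adjusted p = 7.6e-05). The water channel gene Aqp1 fell by 2.94, and the factors Gata1 and Klf1, which drive erythroid differentiation, by 1.82 and 1.73. The late genes Hba-a1 and Alas2, of globin and heme synthesis, averaged 2.86 and 3.28 in WT LSK FLT3-, below the array medians, and did not pass. Against WT LMPP 0 of 19 passed (limma), with 2 higher and 2 lower at an unadjusted p under 0.05, and 1 was higher without WT LMPP replicate 2. The summed linear intensity of 3 erythroid markers was 180 to 189 in WT LSK FLT3-, 72.2 to 79.2 in E2A-KO LMPP and 65.9 to 66.6 in WT LMPP.

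Mast cell and basophil genes fell in 7 of 15 cases and rose in 2, with a median of -0.20, and 1 rose without either WT LSK FLT3- array. The summed linear intensity of 4 mast cell markers was 265 to 271 in WT LSK FLT3-, 61.1 to 61.2 in E2A-KO LMPP and 44.2 to 45.5 in WT LMPP. The mast cell protease gene Cpa3 was at 7.36 and 7.26 in WT LSK FLT3-, 3.95 and 4.05 in E2A-KO LMPP and 3.41 and 3.72 in WT LMPP, a fall of 3.31 from WT LSK FLT3- (adjusted p = 6.23e-06). Mitf, a factor of mast cells, fell by 1.93, the basophil protease gene Mcpt8 by 1.52 and the IgE receptor chain gene Ms4a2 by 1.24. The protease genes Mcpt1, Mcpt4 and Tpsb2 of mature mast cells differed by -0.04 to 0.14 and did not pass.

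Plasma cell and stromal genes were measured as signs of other cells in the sort. Igha, the immunoglobulin A heavy chain, was at 9.97 and 10.13 in WT LSK FLT3-, 4.55 and 4.38 in E2A-KO LMPP and 4.03 and 4.50 in WT LMPP, and Jchain, the joining chain, was at 7.83 and 8.05, 3.28 and 3.34, and 3.32 and 3.02. Both LMPP groups were low, and the falls were 5.59 and 4.63 (adjusted p = 1.27e-06 for both). Of 10 plasma cell genes 3 fell and 3 rose, and without either WT LSK FLT3- array 1 rose. Mzb1 and Tnfrsf17, further plasma cell genes, did not pass (0.21 and 0.15). Sdc1, also a plasma cell marker, went the other way and rose by 2.48, with its levels given above. Of the 4 plasma cell markers 1 rose and 2 fell. The summed linear intensity of 4 plasma cell markers was 1289 to 1448 in WT LSK FLT3-, 285 to 326 in E2A-KO LMPP and 170 to 184 in WT LMPP, with Jchain and Tnfrsf17 below the array median in E2A-KO LMPP. Its part in the stem cell results was not tested.

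Of 13 genes of stroma and endothelium 3 rose and 3 fell. Col1a2, a collagen chain, went from 5.84 and 5.64 to 4.30 and 4.46, and Acta2, smooth muscle actin, from 5.01 and 4.90 to 6.22 and 6.12. The stromal markers Col1a1, Col3a1, Cxcl12 and Lepr were below the E2A-KO array medians, and none of the 4 passed. Of 3 endothelial markers 1 rose, and of 3 NK cell markers 0 rose and 0 fell. The part of other cells in these values was not tested.

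**Figure D3:**
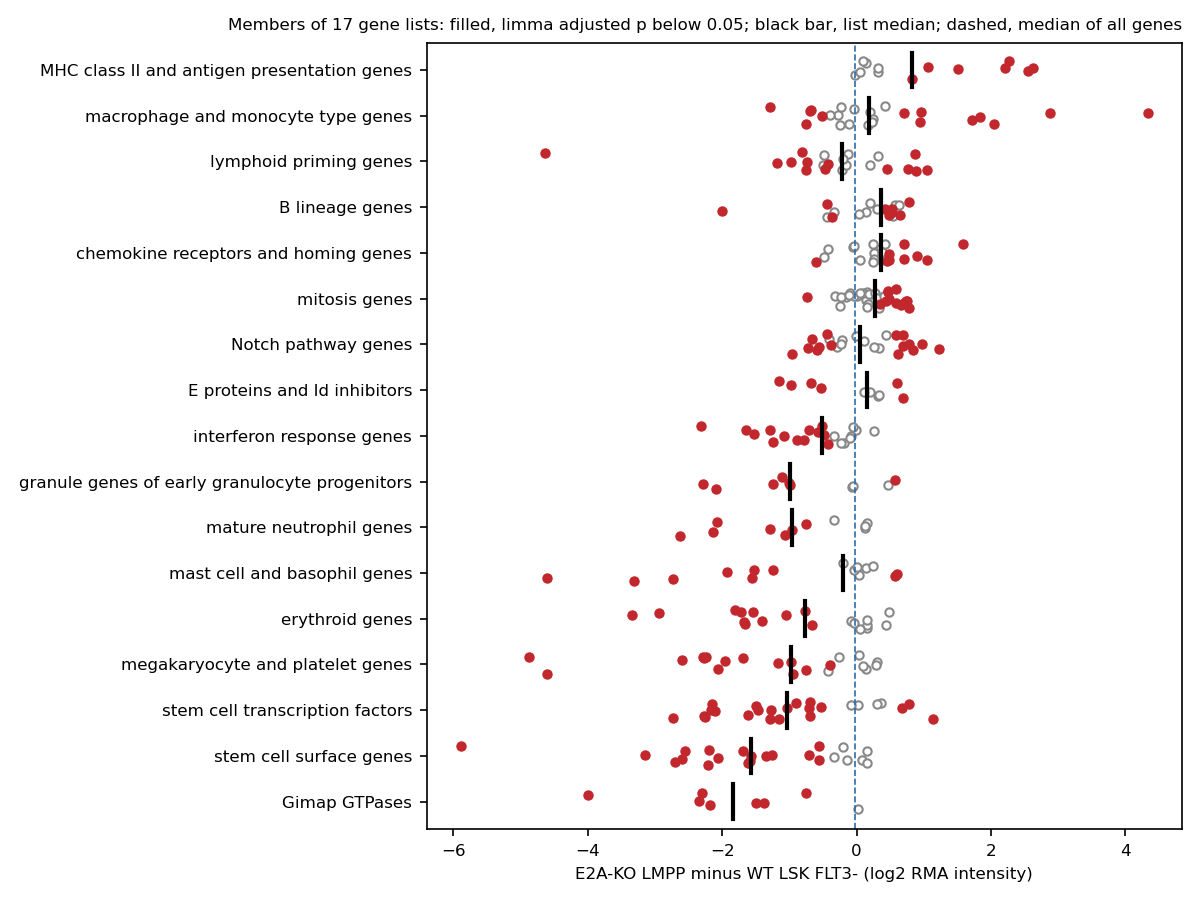
Difference between E2A-KO LMPP and WT LSK FLT3- (log2) for each member of 17 gene lists. Filled points passed (limma adjusted p under 0.05), black bars are list medians and the dashed line is the median of all genes; MHC class II members reach 2.62, and the Gimap, stem cell surface and megakaryocyte medians lie at -1.84, -1.58 and -0.98.

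Other genes with large falls belong to no single group. Grb10, an imprinted adaptor of growth factor receptors, went from 8.80 and 8.84 to 4.42 and 4.05, although 1 of its 3 probe sets rose by 0.72 from a mean of 3.18. Aldh1a1, a retinal dehydrogenase of stem cells, fell by 4.08, the actin-bundling gene Fscn1 by 4.19, the nuclear factor gene Dach1 by 3.65 and the lipoprotein gene Apoe by 3.61. Tgfbr3, a TGF-beta coreceptor, Slit2, a guidance ligand, and Hemgn, a nuclear protein of early blood cells, fell by 3.51, 3.38 and 3.38. Some sizes depended on the setting. The smallest differences under the alternatives were -0.91 for Fscn1, -1.69 for Dach1, -1.55 for Tgfbr3, -1.36 for Slit2 and -1.28 for Grb10. Those of Aldh1a1, Apoe and Hemgn were -3.85, -3.40 and -3.03. Of 20 imprinted genes 7 fell and 3 rose, among them Sgce, a sarcoglycan (-2.33), and Ndn, the growth suppressor necdin (-2.15), and without either WT LSK FLT3- array 1 rose.

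The lymphoid priming genes were split. Their list was chosen with earlier results of these data known, so its counts are a description. Of 21 measured, 5 rose and 8 fell against WT LSK FLT3-, with a median of -0.21, and 6 rose and 4 fell after quantile normalization. Without WT LSK FLT3- replicate 1, 3 rose and 3 fell, and 3 or 4 rose and 5 fell without replicate 2 or either E2A-KO array. Against WT LMPP 9 of the 21 were lower, beside 0.995% of all genes, and 0 higher, with 7 to 9 lower when 1 array was left out. Among the falls was Jchain, which is also on the plasma cell list and whose levels are given there. Dntt, which encodes the terminal transferase, was at 10.40 and 10.44 in WT LSK FLT3-, 11.28 and 11.29 in E2A-KO LMPP and 12.87 and 12.87 in WT LMPP. The 3 groups did not overlap, and Dntt was 0.86 above WT LSK FLT3- (SE 0.12, adjusted p = 0.00118) and 1.59 below WT LMPP (adjusted p = 0.000532).

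Rag2, a subunit of the V(D)J recombinase, also lay between the groups, at 4.62 and 4.53, 5.24 and 5.69, and 6.61 and 6.68. Its difference was 0.89 from WT LSK FLT3- (adjusted p = 0.00375) and -1.17 from WT LMPP (adjusted p = 0.0115). The latter call was lost without either WT LSK FLT3- array, E2A-KO LMPP replicate 1 or WT LMPP replicate 2 (up to 0.0586). Satb1, a chromatin organiser of lymphoid progenitors, was at 9.73 and 9.82, 10.50 and 10.57, and 11.09 and 11.12. It rose by 0.76 (adjusted p = 0.00228), and its -0.57 from WT LMPP did not pass (adjusted p = 0.0762). Ccr7, a homing receptor, rose by 1.05, a call lost without E2A-KO LMPP replicate 2 or either WT LSK FLT3- array (up to 0.0788). Mef2c, a factor of lymphoid and myeloid progenitors, rose by 0.46, lost after centring and without any 1 of the 4 arrays (up to 0.176).

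Il7r, Ccr9, Rag1, Blnk and Notch1 are named after their values were seen. Il7r, which encodes the alpha chain of the IL-7 receptor, was at 5.43 and 5.37 in WT LSK FLT3-, 4.73 and 4.58 in E2A-KO LMPP and 8.24 and 8.70 in WT LMPP. It was 0.74 below WT LSK FLT3- (adjusted p = 0.01, up to 0.0782 without E2A-KO LMPP replicate 2 or either WT LSK FLT3- array) and 3.81 below WT LMPP (adjusted p = 2.77e-05). Cnn3, an actin-binding calponin, was at 7.45 and 7.62, 7.44 and 7.39, and 9.69 and 9.93. It was 2.39 below WT LMPP (limma adjusted p = 0.000115). Cnn3 was picked for a small difference from WT LSK FLT3-, so its nearness to those arrays is no result.

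Notch1, the receptor that starts T lineage commitment, was at 9.27 and 9.22 in WT LSK FLT3-, 8.89 and 9.19 in E2A-KO LMPP and 10.39 and 10.28 in WT LMPP, and Blnk, the B cell adaptor, was at 4.33 and 4.46, 4.04 and 4.45, and 6.15 and 6.01. Their differences from WT LSK FLT3- did not pass, and they were 1.29 and 1.84 below WT LMPP (adjusted p = 0.00395 and 0.00127). Rag1, the other recombinase subunit, and Ccr9, a thymus-homing receptor, differed from WT LSK FLT3- by -0.50 (95% interval -1.03 to 0.02) and -0.49 (-0.92 to -0.05) and did not pass. They were 2.12 and 3.22 below WT LMPP.

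Foxo1, a factor of early B cell development, fell from 8.53 and 8.28 to 7.14 and 7.31, by 1.18 (adjusted p = 0.000546), and was at 7.64 and 7.59 in WT LMPP. Ets1, a lymphoid ETS factor, was at 7.29 and 7.04, 6.05 and 6.67, and 7.77 and 8.20. It was 0.81 below WT LSK FLT3-, a call lost without E2A-KO LMPP replicate 1 or either WT LSK FLT3- array, with the mean of its probe sets and after quantile normalization (adjusted p = 0.307 for the last). It was 1.63 below WT LMPP, a call lost without E2A-KO LMPP replicate 1 or WT LMPP replicate 2 (up to 0.0616). Ikzf1, the lymphoid regulator Ikaros, differed by 0.32 and Cd27, a costimulatory receptor, by -0.20, and neither passed.

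Promoters of Rag1 and Ccr9 are shown because these genes were lower in the knockout than in WT LMPP and because their windows hold E-box forms. E2A proteins bind E-boxes, but windows shown for holding a match do not represent the low genes. Whether E2A binding bears on their levels was not tested. The 150 bases before each start are on the gene's strand, from RefSeq on GRCm38.p6, at chr2:101649533-101649682 (minus strand) and chr9:123767061-123767210 (plus strand). Capitals mark CAGGTG and CAGCTG, forms of the E-box CANNTG.
Rag1: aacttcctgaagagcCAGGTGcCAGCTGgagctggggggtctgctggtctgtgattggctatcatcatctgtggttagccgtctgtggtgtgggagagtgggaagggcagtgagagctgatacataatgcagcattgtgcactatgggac
Ccr9: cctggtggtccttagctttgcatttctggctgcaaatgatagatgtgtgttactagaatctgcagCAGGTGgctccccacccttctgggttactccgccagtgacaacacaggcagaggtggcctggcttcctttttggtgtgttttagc
Rag1 holds CAGGTG 135 bases before the start and CAGCTG 128 bases before it, and Ccr9 holds CAGGTG 85 bases before it. On either strand, CAGGTG or CAGCTG occurs in 32.9% of the 32851 windows of 300 bases and CANNTG in 72.3%. One of the first 2 forms lies in 3 of the 8 windows of lymphoid genes lower than in WT LMPP, in 8 of the 27 windows of all lymphoid priming genes and in 6 of the 9 windows of antigen presentation genes. A match in a window is a description and was not tested for binding.

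**Figure D4:**
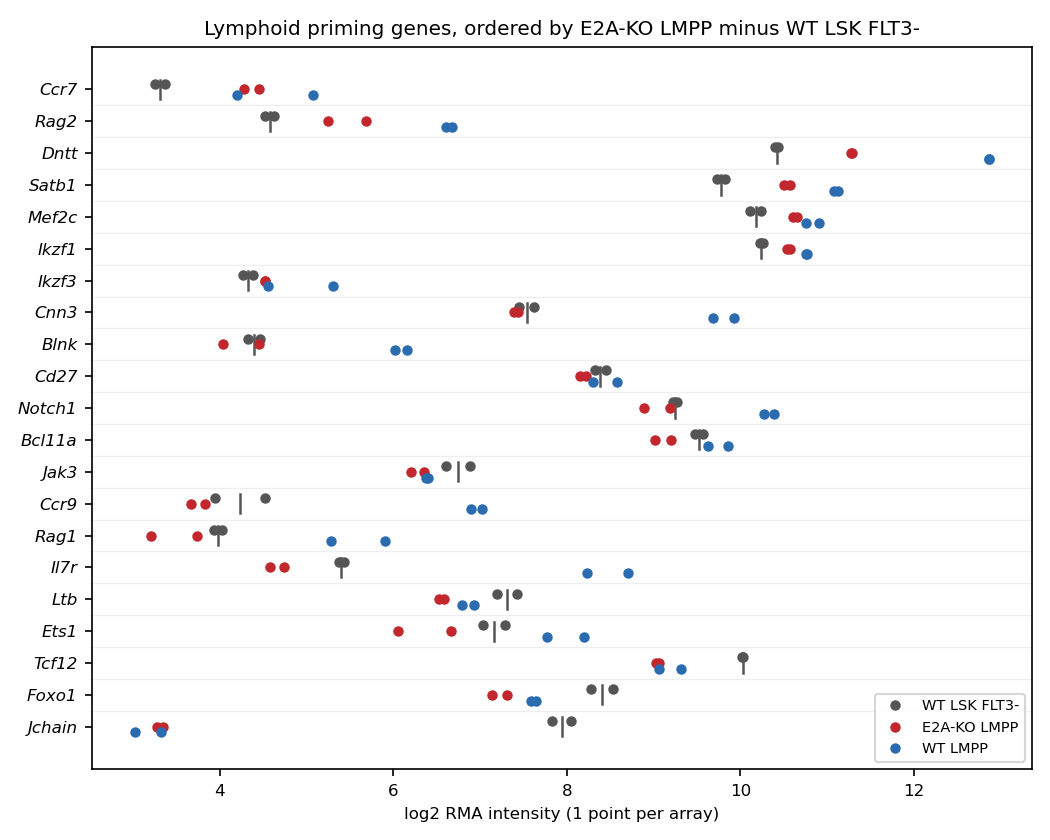
Level of 21 lymphoid priming genes (log2 RMA intensity, 1 point per array) in WT LSK FLT3-, E2A-KO LMPP and WT LMPP, ordered by the difference between E2A-KO LMPP and WT LSK FLT3-, with ticks at the WT LSK FLT3- means. Dntt, Rag2 and Satb1 in E2A-KO LMPP lie between the wild-type groups, and Il7r, Ccr9, Rag1, Blnk and Cnn3 have E2A-KO LMPP means below those of WT LSK FLT3-.

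Of 18 B lineage genes 6 rose and 3 fell, with 2 and 2 after quantile normalization and 2 and 5 after centring. Without either WT LSK FLT3- array 1 rose and 1 fell, and without E2A-KO LMPP replicates 1 and 2 the rises were 5 and 3 and the falls 1 and 1. Vpreb1, a surrogate light chain gene, was at 4.73 and 5.32 in WT LSK FLT3-, 2.98 and 3.05 in E2A-KO LMPP and 4.57 and 4.99 in WT LMPP. It was low only in E2A-KO LMPP, by 2.01 against WT LSK FLT3- (adjusted p = 0.000304) and 1.76 against WT LMPP (adjusted p = 0.00541, 0.0581 without E2A-KO LMPP replicate 1). Its partner Igll1 was at 5.14 and 5.13, 5.96 and 5.87, and 6.14 and 5.75, a rise of 0.78 that was lost with the mean of its probe sets (adjusted p = 0.0773). Ebf1, a master factor of B cells, and Cd79a, a B cell receptor chain, lay below the array median in E2A-KO LMPP, at means of 3.41 and 3.54. Summed over 3 B cell markers, linear intensity was 28.1 to 33.7 in WT LSK FLT3-, 36.7 to 46.6 in E2A-KO LMPP and 50.3 to 50.9 in WT LMPP, and their part in the list was not tested.

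Of 22 T and NK lineage genes 5 rose and 3 fell, and the rises were 3 without E2A-KO LMPP replicate 2 and 2 and 1 without WT LSK FLT3- replicates 1 and 2. Cd8a, the CD8 alpha chain, went from 4.32 and 4.22 to 5.06 and 4.99, a rise of 0.76, and Bcl11b, a T lineage factor, from 5.19 and 4.76 to 3.64 and 3.77, a fall of 1.27. Lat, a T cell receptor adaptor, fell by 0.97. The T cell receptor chains Cd3d and Cd3g were below the E2A-KO array medians, and neither passed. Summed over 4 T cell markers, linear intensity was 68.0 to 74.6 in WT LSK FLT3-, 103 to 110 in E2A-KO LMPP and 94.3 to 107 in WT LMPP, and their part in the list was not tested.

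Of 22 chemokine receptors and homing genes 8 rose and 1 fell, and the rises were 5 without E2A-KO LMPP replicate 2 and 1 and 3 without WT LSK FLT3- replicates 1 and 2. Itgb7, an integrin chain for homing to gut and marrow, was at 6.24 and 6.32 in WT LSK FLT3-, 7.92 and 7.82 in E2A-KO LMPP and 7.16 and 6.94 in WT LMPP. It was 3-fold higher than in WT LSK FLT3- (adjusted p = 0.000113) and 0.82 above WT LMPP (adjusted p = 0.0251, up to 0.125 without single arrays other than WT LMPP replicate 1). Selplg, a selectin ligand, and Itga4, an integrin chain that binds VCAM1, differed by -0.05 and -0.04 and did not pass. Cxcr4, the receptor that holds progenitors in the marrow, differed by 0.38 and did not pass either.

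Of 30 growth factor and cytokine receptors 4 rose and 16 fell, with 7 rises and 8 falls after quantile normalization, and the falls were 6 and 8 without WT LSK FLT3- replicates 1 and 2. Il1r1, the interleukin-1 receptor, went from 7.49 and 7.39 to 8.66 and 8.51, a rise of 1.15, and was at 8.59 and 8.47 in WT LMPP. Csf2rb2, a signalling chain of the interleukin-3 receptor, went from 5.51 and 6.06 to 3.86 and 4.01, a fall of 1.85. Csf1r, the macrophage growth factor receptor, was at 7.94 and 7.74, 7.48 and 7.70, and 8.81 and 8.63, -0.25 from WT LSK FLT3- and 1.13 below WT LMPP (adjusted p = 0.00811, 0.0668 without E2A-KO LMPP replicate 1).

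In the E protein and Id network 2 of 10 genes rose and 4 fell, and without WT LSK FLT3- replicates 1 and 2 the rises were 1 and 1 and the falls 3 and 2. Tal1, an E protein partner in stem and erythroid cells, went from 9.10 and 8.93 to 7.90 and 7.81, a fall of 1.16 (adjusted p = 0.000457). Tcf12, which encodes the E protein HEB, was at 10.02 and 10.03, 9.03 and 9.06, and 9.06 and 9.32, a fall of 0.98 that was lost with the mean of its probe sets (adjusted p = 0.0638). Tcf4, which encodes E2-2, was at 8.78 and 8.86, 9.61 and 9.44, and 9.83 and 10.13, a rise of 0.70 lost with the mean of its probe sets and without WT LSK FLT3- replicate 1 (up to 0.136).

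Id2, an inhibitor of E proteins, was at 6.21 and 6.11 in WT LSK FLT3-, 6.01 and 6.71 in E2A-KO LMPP and 7.83 and 7.65 in WT LMPP, so its E2A-KO arrays overlapped with WT LSK FLT3- and lay below WT LMPP. The call against WT LMPP (adjusted p = 0.0181) was kept without E2A-KO LMPP replicate 2 and lost without any of the other 5 arrays (up to 0.0758). Id1 and Id3, its relatives, differed from WT LSK FLT3- by 0.32 and 0.33 and did not pass. Id4 rose by 0.61 from 2.99 and 2.86, below the array medians, a call lost under 3 alternatives (up to 0.126).

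Notch pathway genes rose in 8 of 24 cases and fell in 7, with a median of 0.06, with 4 rises without WT LSK FLT3- replicate 2. The falls were 3 without E2A-KO LMPP replicate 2 or WT LSK FLT3- replicate 1 and 2 without WT LSK FLT3- replicate 2. Lfng, a glycosyltransferase that tunes Notch receptors, was at 4.27 and 4.35 in WT LSK FLT3-, 5.81 and 5.27 in E2A-KO LMPP and 5.78 and 5.58 in WT LMPP, a rise of 1.23 (adjusted p = 0.00151). Dll4, a Notch ligand, rose by 0.84, and Adam10, a protease that cleaves Notch, fell by 0.72. Notch2 rose by 0.79 (adjusted p = 0.00577, 0.0608 without WT LSK FLT3- replicate 2).

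Granule genes of early granulocyte progenitors fell in 6 of 10 cases and rose in 1, with a median of -1.0 and 6 or 7 falls under the alternatives, and 0 rose without WT LSK FLT3- replicate 2. Elane, neutrophil elastase, was at 6.95 and 7.50 in WT LSK FLT3-, 4.85 and 5.02 in E2A-KO LMPP and 4.48 and 4.68 in WT LMPP, and Ms4a3, a marker of granulocyte-monocyte progenitors, was at 6.64 and 7.06, 4.71 and 4.79, and 4.18 and 4.33. Both LMPP groups lay below WT LSK FLT3-, with falls of 2.29 and 2.10 in E2A-KO LMPP (adjusted p = 9.94e-05 and 7.5e-05). Mpo, myeloperoxidase, fell by 1.11, Ctsg, cathepsin G, by 1.25 and Prtn3, proteinase 3, by 1.01. Cebpa and Gfi1, factors of the granulocyte lineage, differed by -0.07 and -0.06 and did not pass.

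Genes of mature neutrophils fell in 7 of 11 cases against WT LSK FLT3- and in 7 of 11 against WT LMPP, with 0 rises in both, and 6 or 7 were lower than in WT LMPP when 1 array was left out. These comparisons share the E2A-KO arrays, and 0.995% of all genes were lower than in WT LMPP. Ngp, a granule protein, was at 9.44 and 9.25 in WT LSK FLT3-, 6.81 and 6.64 in E2A-KO LMPP and 10.31 and 10.32 in WT LMPP. Ltf, lactoferrin, was at 6.10 and 5.99, 4.25 and 3.56, and 7.37 and 7.40, and Lcn2, an iron-siderophore binding lipocalin, was at 5.33 and 5.64, 3.47 and 3.34, and 6.22 and 6.24. In all 3 only the E2A-KO arrays were low, by 2.62, 2.14 and 2.08 against WT LSK FLT3- (adjusted p = 1.12e-05, 0.000201 and 4.67e-05) and by 3.59, 3.48 and 2.83 against WT LMPP.

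Chil3, a chitinase-like protein, was at 7.48 and 7.36 in WT LSK FLT3-, 6.39 and 5.87 in E2A-KO LMPP and 7.97 and 8.26 in WT LMPP, a fall of 1.29 from WT LSK FLT3-. The calprotectin genes S100a8 and S100a9 fell by 1.06 and 0.96, and were 1.72 and 1.36 below WT LMPP. The protease genes Mmp8 and Mmp9 of late neutrophils differed by 0.13 and 0.13 and did not pass. The summed linear intensity of 5 neutrophil markers was 1386 to 1499 in WT LSK FLT3-, 479 to 532 in E2A-KO LMPP and 2560 to 2615 in WT LMPP. Whether these transcripts come from the sorted progenitors or from other cells was not tested.

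Innate sensors and adaptors rose in 3 of 25 cases and fell in 9, the rises were 1 without E2A-KO LMPP replicate 2 or either WT LSK FLT3- array, and 6 fell without E2A-KO LMPP replicate 1 or WT LSK FLT3- replicate 1. Tlr3, the sensor of double-stranded RNA, was at 4.07 and 4.31 in WT LSK FLT3-, 5.69 and 5.66 in E2A-KO LMPP and 5.75 and 6.24 in WT LMPP, a rise of 1.49 (adjusted p = 0.000521). Tlr4, the lipopolysaccharide receptor, was at 6.61 and 6.85, 4.77 and 5.0, and 5.07 and 5.46, a fall of 1.85, and its inhibitor Irak3 and adaptor Tirap fell by 1.89 and 1.46. For these 4 genes the differences from WT LMPP were -0.38 to -0.17 and did not pass. Clec4e, a lectin receptor for microbial lipids, was at 7.23 and 7.18, 6.07 and 5.93, and 4.12 and 4.19, so E2A-KO LMPP lay between WT LSK FLT3- and WT LMPP, 1.21 below the former and 1.85 above the latter.

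Gimap genes, a cluster of GTPases that support lymphocyte survival, fell in 7 of 8 cases, with a median of -1.84 and 6 to 8 falls under the alternatives. Gimap8 was at 9.94 and 9.74 in WT LSK FLT3-, 6.11 and 5.57 in E2A-KO LMPP and 8.21 and 8.58 in WT LMPP, a 16-fold fall from WT LSK FLT3- (adjusted p = 1.12e-05). Gimap1 was at 8.23 and 8.34, 5.90 and 5.99, and 6.96 and 7.29, and Gimap6 was at 7.64 and 7.67, 5.55 and 5.39, and 7.24 and 6.81. All 3 were lowest in E2A-KO LMPP, with WT LMPP between the other groups. Gimap5, Gimap9 and Gimap7 fell by 2.30, 1.49 and 1.37. Against WT LMPP 6 of 8 were lower, and 5 or 6 when 1 array was left out. The share of all genes lower than in WT LMPP was 0.995%. Gimap4, at means of 5.15 and 5.16, differed from WT LSK FLT3- by 0.01.

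Interferon response genes fell in 13 of 21 cases and rose in 0, with a median of -0.52. The falls were 8 after quantile normalization and without E2A-KO LMPP replicate 2 or WT LSK FLT3- replicate 2. Ifit1, an antiviral RNA-binding protein, was at 6.44 and 6.45 in WT LSK FLT3-, 4.15 and 4.10 in E2A-KO LMPP and 5.16 and 5.09 in WT LMPP. The 3 groups did not overlap, and Ifit1 was 2.32 below WT LSK FLT3- (adjusted p = 1.19e-05) and 1.0 below WT LMPP (adjusted p = 0.0062). The antiviral genes Rsad2 and Isg20 fell by 1.64 and 1.52. Over all genes 0.995% were lower than in WT LMPP. Against WT LMPP 7 of 21 were lower, and 1 to 5 when 1 array was left out, with 1 without E2A-KO LMPP replicate 2.

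**Figure D5:**
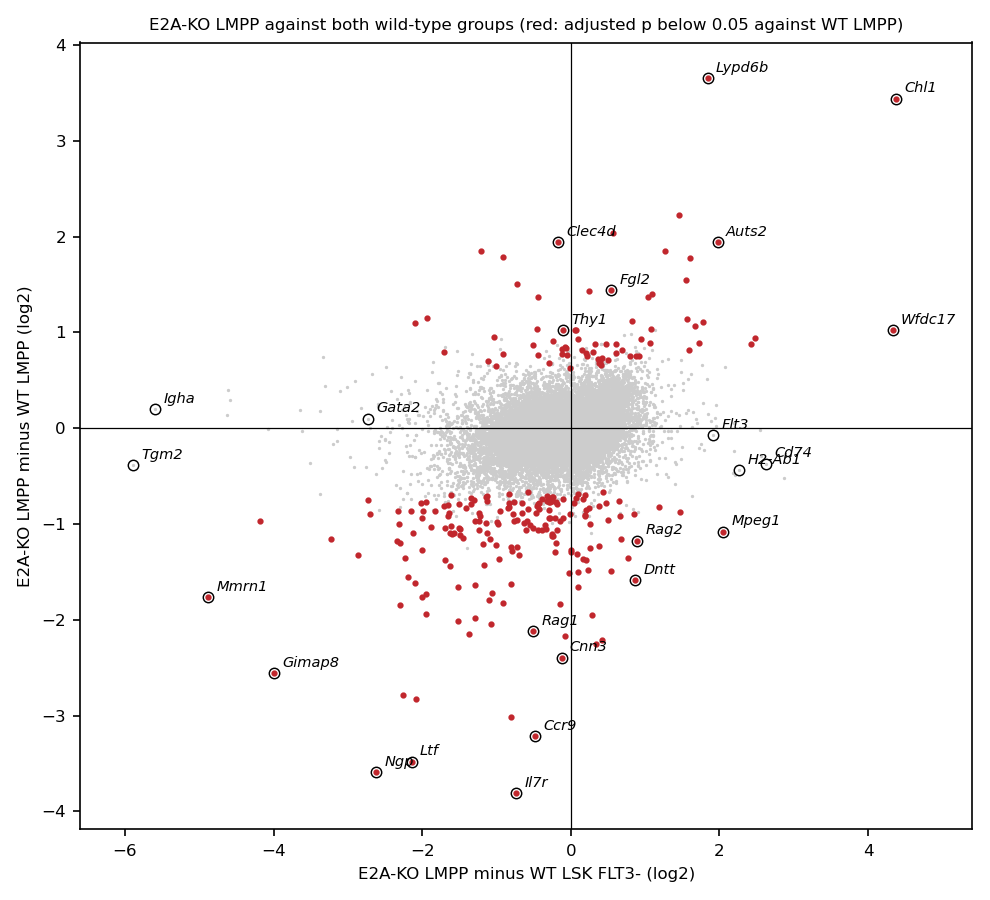
Difference of E2A-KO LMPP from WT LSK FLT3- (horizontal) and from WT LMPP (vertical), in log2, for 18194 genes, with genes at an adjusted p under 0.05 against WT LMPP in red and labelled genes circled. Both axes share the E2A-KO arrays, so no relation is read between them. Ngp, Ltf and Gimap8 lie low on both. Cnn3, Rag1 and Ccr9 lie at -0.12, -0.50 and -0.49 on the horizontal axis, where Cnn3 was picked for a small difference.

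Against WT LMPP 250 genes differed, 69 higher (0.379%) and 181 lower (0.995%). The count was 89 without either WT LSK FLT3- array, 93 and 107 without E2A-KO LMPP replicates 1 and 2, and 151 and 164 without WT LMPP replicates 1 and 2. Some of these genes were above both wild-type groups. Chl1, a neural cell adhesion molecule, was at 2.58 and 3.04 in WT LSK FLT3-, 6.81 and 7.59 in E2A-KO LMPP and 4.28 and 3.23 in WT LMPP. It was 20.9-fold above WT LSK FLT3- (SE of the log2 difference 0.35, adjusted p = 8.87e-05), from a level below the array medians, and 3.44 above WT LMPP (adjusted p = 0.00241). Under the alternatives the log2 difference of Chl1 from WT LSK FLT3- ran from 1.65 to 4.77.

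Auts2, a gene of neural development and chromatin, was at 5.52 and 5.21 in WT LSK FLT3-, 7.30 and 7.39 in E2A-KO LMPP and 5.49 and 5.31 in WT LMPP. The wild-type groups overlapped, and E2A-KO LMPP stood 1.98 and 1.94 above them (adjusted p = 7e-05 and 0.000532). Atp8b4, a phospholipid flippase, had the same pattern at a higher level, at 7.76 and 7.50, 9.21 and 9.15, and 7.48 and 7.79. Lypd6b, a GPI-anchored protein, was at 5.03 and 5.12, 6.95 and 6.88, and 3.43 and 3.10, so here WT LMPP lay below WT LSK FLT3-. Il31ra, a cytokine receptor chain, Ptprf, a receptor phosphatase, and S100a4, a calcium-binding protein, were 1.61, 1.46 and 1.27 above WT LSK FLT3- and 1.78, 2.22 and 1.85 above WT LMPP.

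On the low side, Sytl4, a vesicle trafficking protein, was at 6.50 and 6.44 in WT LSK FLT3-, 4.21 and 4.84 in E2A-KO LMPP and 6.49 and 6.43 in WT LMPP, and F13a1, a coagulation factor subunit of monocytes and platelets, was at 6.45 and 6.35, 4.31 and 3.88, and 5.84 and 6.03. Only the E2A-KO arrays were low for both. The falls were 1.95 and 2.30 from WT LSK FLT3- (adjusted p = 0.000226 and 5.65e-05) and 1.94 and 1.84 from WT LMPP (adjusted p = 0.00211 and 0.00134).

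Other genes differed between the LMPP genotypes and were picked for a small difference from WT LSK FLT3-, which is therefore no result. Clec4d, a C-type lectin of myeloid cells, was at 7.21 and 7.02 in WT LSK FLT3-, 6.74 and 7.13 in E2A-KO LMPP and 5.0 and 5.0 in WT LMPP, and Mtmr9, a myotubularin-related protein, was at 9.67 and 9.71, 9.97 and 9.91, and 8.45 and 8.58. WT LMPP was the low group in both, by 1.94 and 1.43. Fgl2, a secreted fibrinogen-like protein, and Hk3, a hexokinase of myeloid cells, were 1.44 and 1.37 above WT LMPP. Thy1, a surface protein of stem cells and T cells, was 1.02 above WT LMPP (adjusted p = 0.041), a call lost with the replicate block and without any 1 of the 6 arrays (up to 0.164).

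In the other direction, Ptger2, a prostaglandin receptor, was at 5.84 and 5.52 in WT LSK FLT3-, 5.75 and 5.56 in E2A-KO LMPP and 7.14 and 7.20 in WT LMPP, Fgf13, an intracellular growth factor relative, was at 3.89 and 3.94, 3.95 and 3.74, and 5.58 and 6.45, and Slc27a2, a fatty acid transporter, was at 3.94 and 4.05, 3.89 and 4.29, and 5.55 and 5.93. WT LMPP was the high group in all 3, and the E2A-KO and WT LSK FLT3- arrays overlapped. E2A-KO LMPP was 1.52, 2.17 and 1.65 below WT LMPP (adjusted p = 0.00211, 0.00403 and 0.00357). The levels of Fgf13 and Slc27a2 in E2A-KO LMPP were near the array median.

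Mitosis genes rose in 12 of 33 cases and fell in 1, with a median of 0.28. The rises were 5 without either WT LSK FLT3- array, 23 after quantile normalization and 7 after centring. Bub1b, a spindle checkpoint kinase, was at 9.05 and 8.89 in WT LSK FLT3-, 9.71 and 9.79 in E2A-KO LMPP and 9.82 and 9.92 in WT LMPP, a rise of 0.78 (adjusted p = 0.00262). Cdc25c, the phosphatase that starts mitosis, and Ttk, another checkpoint kinase, rose by 0.75 and 0.74. Against WT LMPP 0 of 33 passed (limma), with 5 lower at an unadjusted p under 0.05. Of 39 DNA replication genes 3 rose and 10 fell as deposited, near the 11% and 26.5% of all genes, so the list did not stand out. After quantile normalization 5 rose and 0 fell, beside 1593 higher and 2024 lower of 18194 genes. Fewer fell without any 1 of the 4 arrays.

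Cell cycle inhibitors fell in 5 of 10 cases and rose in 1, 0 rose without either WT LSK FLT3- array, and 2 fell without WT LSK FLT3- replicate 1 and after quantile normalization. Cdkn1c, which encodes p57, an inhibitor that keeps stem cells quiescent, was at 5.45 and 5.82 in WT LSK FLT3-, 4.03 and 3.97 in E2A-KO LMPP and 4.19 and 4.54 in WT LMPP, a fall of 1.63 (adjusted p = 0.0003). Rbl2, a pocket protein of resting cells, went from 7.77 and 7.77 to 6.78 and 6.80, and Ccne2, a G1 cyclin, fell by 1.65. Cdk6, a kinase of early progenitors, was 0.49 higher, a call lost with the mean of its probe sets, after centring, and without E2A-KO LMPP replicate 1 or either WT LSK FLT3- array (up to 0.122).

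Metabolic and chromatin lists moved with the scaling. So did the 18194 genes as a whole, of which 4820 fell as deposited, 2024 after quantile normalization and 6148 after centring. Respiratory chain genes fell in 14 of 31 cases as deposited, 2 after quantile normalization and 20 after centring, and in 2 or 3 without either WT LSK FLT3- array. Without E2A-KO LMPP replicates 1 and 2 the falls were 8 and 7. Glycolysis and hypoxia genes fell in 11 of 23 cases, with 4 and 14 on those scales 5 without either WT LSK FLT3- array and 6 without E2A-KO LMPP replicate 1. Polycomb genes fell in 9 of 27 cases, with 3 and 17 on those scales, 3 without either WT LSK FLT3- array and 5 without E2A-KO LMPP replicate 2.

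Single members of these lists kept their calls under all 13 alternatives. Hk1, a hexokinase, went from 9.44 and 9.67 to 8.39 and 8.34, a fall of 1.19, and Slc2a1, the main glucose transporter, fell by 1.54. Bmi1, a polycomb protein of stem cell self-renewal, went from 9.82 and 9.81 to 8.99 and 8.98, beside 8.87 and 9.14 in WT LMPP. Ndufb5, a subunit of respiratory complex I, fell by 0.89, and Mbd3, a subunit of a chromatin remodelling complex, by 1.14. Of 17 aldehyde dehydrogenases 7 fell and 0 rose, and 4 fell without WT LSK FLT3- replicate 2.

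Hox genes rose in 7 of 23 cases and fell in 2. The rises were 4 without E2A-KO LMPP replicate 2 and 2 without either WT LSK FLT3- array, and 0 fell without WT LSK FLT3- replicate 2 or either E2A-KO array. Hoxc6 was at 3.81 and 3.79 in WT LSK FLT3-, 4.81 and 4.64 in E2A-KO LMPP and 4.91 and 5.12 in WT LMPP, a rise of 0.92 (adjusted p = 0.00153) from a level below the array medians. Immediate early and stress genes rose in 4 of 23 cases and fell in 10, with 0 rises and 7 falls without WT LSK FLT3- replicate 1 and 1 rise and 5 falls without replicate 2. Egr1, an early response factor linked to stem cell quiescence, was at 6.99 and 7.14, 5.64 and 5.50, and 6.07 and 6.20, and the heat shock gene Hspa1b fell by 2.15.

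Of 13 DNA methylation genes 5 rose and 4 fell, and the rises were 3 without either E2A-KO array and 1 without either WT LSK FLT3- array, with 1 and 2 falls in the latter. Of 18 cytosolic ribosomal protein genes 1 rose and 1 fell, with a median of -0.05, and 0 fell without any 1 of the 4 arrays. The rise was that of Rps15, from 10.72 and 10.92 to 12.02 and 11.73. Of 15 Bcl2 family genes, which govern survival, 1 rose (Bik) and 3 fell (Bcl2l1, Mcl1 and Bid), and each of these 4 calls was lost under 3 to 5 alternatives. Their highest adjusted p was 0.115, 0.929, 0.344 and 0.739. Bcl2 itself, the founding survival gene, differed by 0.21 and did not pass.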

How the data were processed

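The deposited series table holds linear RMA intensity values made by the authors, per the submitters' processing notes; the sources used here do not give whether all 6 arrays were normalized together. Values were taken to log2. The platform annotation gives a single symbol for 34958 of 45101 probe sets, more than 1 for 932 and none for 9211; 34754 matched the reference table by Entrez ID, and 0 symbols were changed. Each of 18194 genes was represented by its probe set with the highest mean. Sample titles and source names gave the groups, since 1 description label calls all samples WT LMPP. limma 3.58.1 (R 4.3.3) was fitted to all 6 arrays with 1 mean per group, Benjamini-Hochberg adjustment over all genes and a threshold of 0.05, after tests on simulated data.

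The members and gene lists were chosen with earlier results of these data known; 656 listed genes were measured and 66 symbols were not matched. A rule named the 15 largest rises and falls, up to 4 members a list and direction (or 2 where none passed), 8 genes a direction beyond both wild-type groups, 8 a direction near WT LSK FLT3-, the gate genes, E proteins and Id genes. Other genes in the text were chosen after their values were seen. Alternatives were a replicate block, the 4 arrays alone, quantile normalization, median centring, a filter on dim genes, the mean of probe sets, a trended prior and leaving out each array. Leaving out either array of the group outside a comparison repeats the fit on its 4 arrays alone, so these alternatives are the same test. Promoter windows and sequences came from RefSeq tables of GRCm38.p6. The number of arrays limits the precision.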

Additional observations from a re-analysis of the deposited data

Results flagged for a closer look

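Probe sets without a single gene symbol were used in no comparison between groups above. Of 10143 tested, 2289 (22.6%) differed between E2A-KO LMPP and WT LSK FLT3- (limma, adjusted p under 0.05), beside 28.5% of all probe sets. They are named here because they lie outside the main measurement. The transcripts behind them are unnamed here.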

How the results depend on the processing

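Against WT LSK FLT3-, 6822 genes passed, with 3617 after quantile normalization (1593 higher and 2024 lower), 12853 when all 45101 probe sets were tested in place of genes and 1358 when a 2-fold difference was also required. Leaving out 1 array gave 2944 to 7515, and the replicate block 6535. Against WT LMPP 250 passed, with 89 on the 4 arrays alone, 548 with a trended prior, 445 over all probe sets, 123 with a 2-fold difference and 508 at an adjusted p under 0.1. Leaving out 1 array gave 89 to 164 there, and the replicate block 200; the replicate numbers did not pair the samples, since deviations of same-numbered arrays correlated at -0.042 between E2A-KO LMPP and WT LSK FLT3- and at 0.023 between E2A-KO LMPP and WT LMPP. With the mean of all probe sets the difference from WT LSK FLT3- reversed for Ccnd3 (0.15), Hdc (-0.94), Ighm (-0.33), Nr4a2 (-0.077), Numb (0.081), Rora (-0.19), Rrm1 (-0.18) and Uhrf1 (-0.27), and after quantile normalization for Cd72 (0.079). The cause was not tested. Leaving out either WT LMPP array repeated the fit on the 4 arrays of the main comparison, and these repeats are counted in the pairs that follow. Of 226 genes named by the rule 207 passed, and 123 of them passed under every alternative run on them. Of 2915 pairs of a gene and an alternative, 2640 kept direction and side of the threshold, 255 lost the call and 11 gained it. Of 936 pairs of a list and an alternative, 197 moved the count by over 1.5 times. The table holds no detection calls, so whether levels below the array medians, near 4.0 (log2), are above background was not tested.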
